A study of Equus caballus with 2 samples.

Results

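The regions described here are isolated stretches of dense CpGs that carried little or no methylation in horse skin. The genome was divided into fixed tiles of 1 kb. A tile was called dense when over 20 of its CpGs were listed in the file of either library, and it was used when at least 3 CpGs had 10 or more reads in both libraries. It was called isolated when its fixed bin of 10 kb held fewer than 3 such dense tiles. Of 103512 usable tiles, 10122 were dense and 9110 of these were isolated. The 6139 isolated tiles with a methylation level of at most 20% in skin (67.4% of the isolated dense tiles and 5.93% of all usable tiles) are described below. They were thus selected on the skin level. The level of a tile is the percent of all reads over its covered CpGs that showed an unconverted C.

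The study profiled DNA methylation in a single horse, labelled horse 1, by reduced representation bisulfite sequencing (RRBS). In this assay DNA is cut at CCGG sites, and bisulfite then turns unmethylated cytosines into bases read as T. There was 1 library of sarcoid, a tumour of fibroblasts in equine skin linked to bovine papillomavirus, and 1 library of skin taken away from the tumour. No replicate, treatment, age or sex is given for either, both are bulk tissue with cells of several types, and every difference below describes these 2 libraries only. Each was run on its own sequencing lane, so lane and tissue cannot be told apart.

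In mammals most CpGs are methylated, and methylated cytosines mutate readily, so CpGs have become rare in most of the genome. CpG islands are the exception. They are short stretches of dense CpGs, often at gene promoters, that stay unmethylated in most tissues, partly because proteins that bind unmethylated CpGs and marks of active or poised promoters keep the methyltransferases away. In many tumours the bulk of the genome loses methylation while a subset of islands, often near developmental genes, gains it. Positions are those of the deposited files. The sources used here do not give their build, so no gene is named and no tile is called an island or a promoter.

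The skin library held 48650606 reads over cytosines and the sarcoid library 35970547, with a median of 30 and 24 reads per CpG. The tiles were covered more deeply than that. They listed a median of 29 CpGs, of which 24 were covered, with 1426 reads per tile in skin and 986 in sarcoid. Each CpG on a read adds to the count of its tile, and copies made by PCR were not told apart. Intervals below (Wilson, 95%) therefore cover counting error only and are too narrow.

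Most of the tiles were almost free of methylation, in the tumour as in the skin. The skin level, which chose them, had a median of 0.358% with quartiles of 0.123% and 1.89%. In the sarcoid, whose values the choice did not use, the median was 0.288%, with quartiles of 0.0587% and 1.98%. The sarcoid level was at most 20% in 6039 tiles (98.4%), against 25424 (24.6%) of all usable tiles. Other tiles chosen for a low skin level were mostly low in sarcoid too: 96.1% of 460 dense tiles in crowded bins and 92.4% of 17178 tiles of sparse CpGs were at most 20%. Both libraries were at or below 1% in 3753 tiles, or 61.1%. The levels of the 2 libraries lay within 2 points of each other in 5299 tiles (86.3%), beside 31.7% of all usable tiles. In the low dense tiles of crowded bins this share was 74.1%, and in the low sparse tiles 67.9%. Levels near 0 leave little room for a gap, so such closeness comes in part with the choice. Across the 6139 tiles, which share libraries and are not replicates, Spearman's rho between the 2 levels was 0.819.

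**Figure D1:**
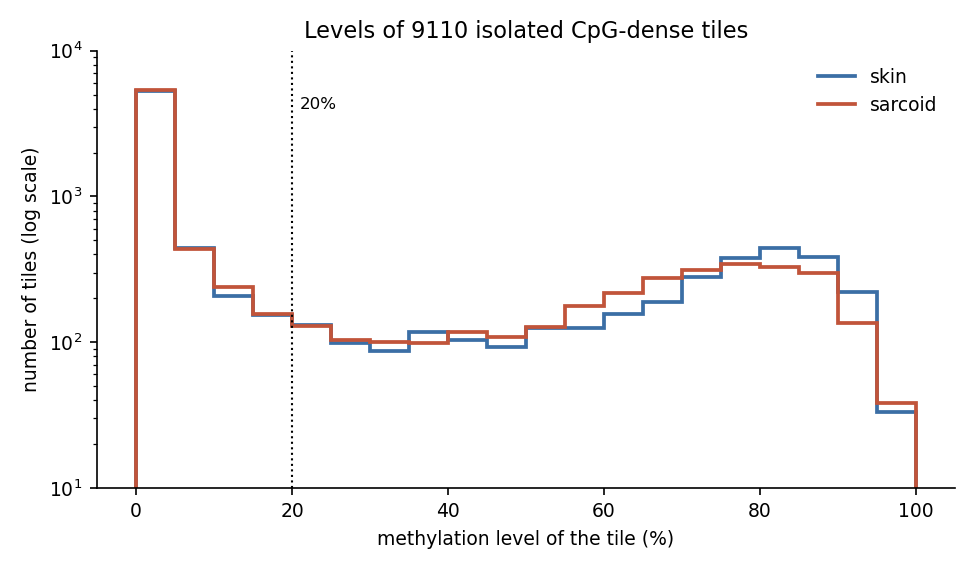
Number of isolated CpG-dense tiles (log scale) by methylation level in steps of 5 points, in skin and in sarcoid; the dotted line is the limit of 20% in skin. Tiles below 5% form the highest step in both libraries (5334 in skin and 5367 in sarcoid), and a broad second peak lies between 70% and 90%.

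Most isolated dense tiles thus fell into a low or a high group, with fewer between them. In skin 5337 were at or below 5% and 1833 lay between 60% and 90%, as the plot of levels shows. Near the limit, 154 lay from 15% to just under 20% and 132 from 20% to just under 25%. The steps of 5 points from 25% to 50% held 87 to 118 tiles each. The limit of 20% was therefore not the lowest point between the groups. Just inside the limit were chromosome 8 from 12231001 to 12232000 (19.98% in skin, 20.5% in sarcoid) and chromosome 15 from 11742001 to 11743000 (19.97% and 14.7%). Just outside were chromosome 14 from 8720001 to 8721000 (20.05% and 15.8%) and chromosome 28 from 40643001 to 40644000 (20.2% and 11.4%).

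Not a single methylated read was seen in 636 tiles in skin and in 1431 tiles in sarcoid, and in 384 tiles in both. At the median depth of such tiles, 899.5 reads in skin and 770 in sarcoid, a count of 0 allows a level of up to 0.334% and 0.390%. These limits count each CpG on a read separately and are too low. The sarcoid had fewer reads, so its larger number of tiles without a methylated read is not a comparison of levels. The tiles with most covered CpGs and no methylated read in sarcoid show how complete this could be. On chromosome 10 from 24348001 to 24349000, 74 CpGs carried 3 methylated of 4195 reads in skin and 0 of 2437 in sarcoid. On chromosome 28 from 32977001 to 32978000, 64 CpGs carried 3 of 3431 and 0 of 1933. A tile of chromosome 13 from 19255001 to 19256000, also with 74 covered CpGs, had 47 of 3924 reads methylated in skin (1.20%) and 0 of 2032 in sarcoid. By the same count this allows up to 0.148%, again too low a limit because neighbouring CpGs share reads.

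Single CpGs within the tiles repeated this picture. Of 158023 covered CpGs, 71.7% had no methylated read in skin and 77.4% had none in sarcoid, against 25.6% and 28.0% of all 877053 covered CpGs of the genome. The skin share follows in part from the choice of the tiles. Reads per CpG were fewer in sarcoid (median 39.8, against 57.9 in skin), so its larger share is not a comparison of levels. All reads of these CpGs together gave 1.98% methylated in skin and 2.06% in sarcoid. Only 783 CpGs (0.495%) reached 50% in skin and 1260 (0.797%) in sarcoid, and 446 did so in both. They were spread over 318 tiles in skin and 413 in sarcoid. In the 4018 tiles at or below 1% in skin, all reads together gave 0.249% methylated in skin and 0.270% in sarcoid. No conversion rate was used here, so levels this low cannot be told apart from unconverted cytosines.

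Pooled over tiles, CpGs near the middle of a tile's CpGs had the lowest levels. Less than 100 bp from that middle the mean CpG level was 1.49% in skin and 1.70% in sarcoid. At 300 to 400 bp it was 4.16% in both, and beyond 400 bp it was 7.76% and 7.55%. Only widely spread tiles reach these distances. The limit on the skin level of a tile bears most on the 72040 CpGs under 100 bp and least on the 5477 beyond 400 bp. The order in skin is therefore not independent of the choice, and no other set of tiles was set beside it. In the 1711 tiles with covered CpGs both under 100 bp and at least 300 bp from the middle, the tile means averaged 1.83% near and 7.81% far in skin, and 1.996% and 7.24% in sarcoid. Their medians were 0.25% near and 0.893% far in skin, and 0.157% and 0.559% in sarcoid. A typical tile was thus below 1% at both distances. The near CpGs were lower in 987 of these tiles in skin and in 827 in sarcoid, and higher in 484 and 450. Listed CpGs of a tile were a median of 7 bp apart and spanned a median of 470 bp, so RRBS often saw only part of the tile. This span does not show where low methylation ends.

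Outside the tiles, in sequence that the choice did not use, methylation climbed steadily on the way to the surrounding genome. In skin the mean CpG level was 6.31% in the first 250 bp past the edge, 19.7% at 501 to 1000 bp, 37.9% at 1501 to 2000 bp and 51.1% at 5 to 10 kb, leaving out CpGs of other dense tiles. The sarcoid followed the same course slightly below the skin. Its mean was 6.19%, 19.1%, 37.1% and 49.1% at these distances, so the gap to skin was -0.120 points next to the tile and -2.02 points at 5 to 10 kb. Inside the tiles the sign was the opposite, with a mean CpG level of 2.14% in skin and 2.29% in sarcoid. Without the 24 tiles called at least 25 points higher (below) these means were 2.11% and 2.16%. With reads summed in place of CpG levels averaged, the levels without these 24 tiles were 1.962% and 1.959%. The opposite sign did not hold there. The tiles were chosen for a low skin level, which favours a rise inside them, and the flanks were not. The 2 signs are therefore not a like comparison. Around the 2971 isolated dense tiles over 20% in skin there was no such climb. Skin levels there were 66.7% inside and between 58.1% and 64.4% at every distance up to 10 kb. With 1 library per tissue no test of the difference between these profiles was possible.

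**Figure D2:**
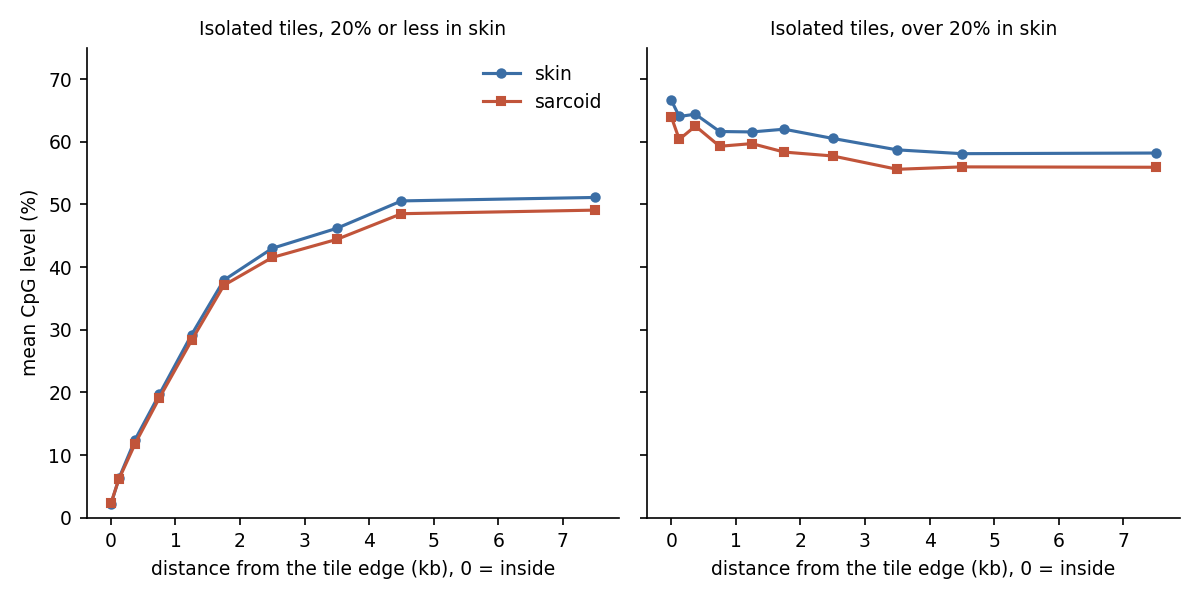
Mean CpG level (%) inside isolated dense tiles (distance 0) and by distance from the tile edge in kb, for tiles at or below 20% in skin (left) and over 20% in skin (right). On the left the level climbs from 2.14% to 51.1% in skin and the sarcoid runs just below it outside the tile; on the right it stays between 58.1% and 66.7% in skin.

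Where at least 3 CpGs were covered from 1 to 3 kb on either side, which held for 422 tiles (6.87%), the surroundings varied. Both sides had a mean of at least 50% in skin for 107 of these tiles, a single side for 164 and neither for 151. Over all 422 tiles the flanks averaged 39.4% in skin and 37.2% in sarcoid, while the tiles themselves had medians of 1.517% and 1.502%. RRBS covers sparse sequence poorly, so these 422 tiles are not a fair sample of all.

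Dense tiles were low in skin more often the more CpGs they listed. Of isolated tiles listing 21 to 25 CpGs, 57.0% were at or below 20%, against 67.1% at 26 to 30 CpGs, 74.5% at 31 to 40 and 85.0% above 40. Once low, their median sarcoid level differed little with density, at 0.282%, 0.276%, 0.298% and 0.289% in these classes. These medians lie close to 0 and do not show the tiles with higher levels. The mean sarcoid level of the low tiles fell with density, at 2.506%, 2.468%, 2.052% and 1.804%. Their mean skin level, which the choice limits, fell less, at 2.181%, 2.161%, 1.885% and 1.837%. The low tiles made up between 49.0% of isolated dense tiles on chromosome 12 and 84.0% on chromosome 5. They were also scattered: 4692 were the only dense tile of their bin, and the 6139 tiles formed 5661 runs of adjacent tiles, of which 5193 were single tiles. The longest run, 4 tiles of chromosome 21 from 55528001 to 55532000, had levels of 0.791% to 4.15% in skin and 1.28% to 4.98% in sarcoid. It crosses the edge of a bin, which is how 4 neighbours could each count as isolated.

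The mean of the tiles went from 2.04% in skin to 2.26% in sarcoid, or by 0.218 points with a standard deviation over tiles of 3.40, while the median difference was -0.0437 points. More tiles were lower in the sarcoid (3334, or 54.3%) than higher (2420, or 39.4%), beside 56.3% and 40.6% of all usable tiles. Most levels lay near 0 and the sarcoid had fewer reads, so these counts are not a comparison of levels. The mean and the median thus had opposite signs. Without the tiles called at least 5 points higher or lower (below) the mean difference was -0.0355 points. The plot of sarcoid against skin levels shows the largest rises as points far above the line. The mean difference was above 0 on 21 of 31 chromosomes, from -0.166 points on chromosome 7 to 1.66 on chromosome 4. Over all usable tiles the mean difference was -1.88 points. Because a skin level of at most 20% chose the tiles, a fall is limited in size and a rise is not, and every difference contains the value that chose the tile. Differences and counts of calls below are therefore a description.

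**Figure D3:**
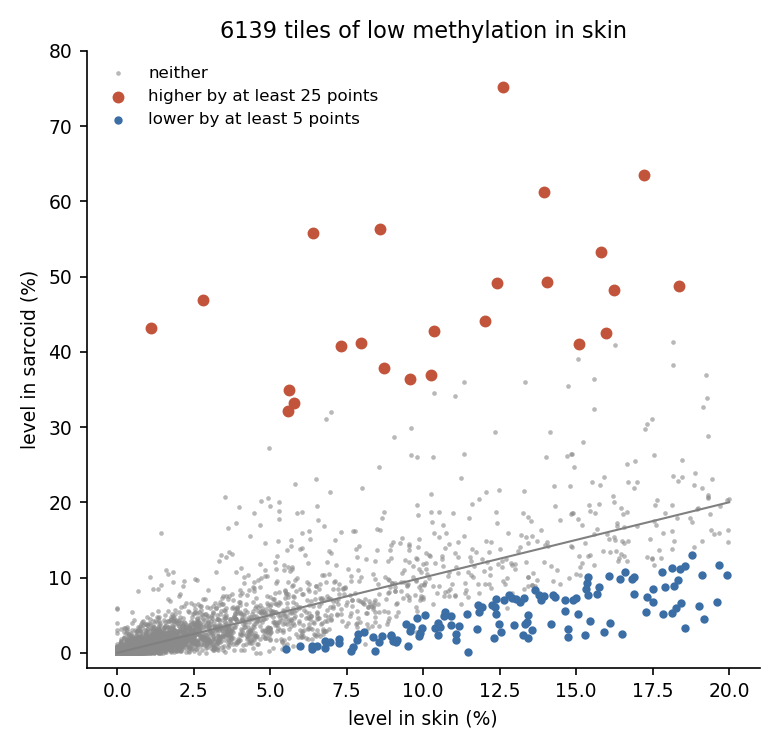
Level in sarcoid against level in skin (%) for the 6139 tiles, with the line of equal levels. The 24 tiles called at least 25 points higher lie between 32.2% and 75.2% in sarcoid, and the 124 called at least 5 points lower lie under the line at skin levels above 5%.

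A large gain was rare. Reads of the libraries were compared by Fisher's exact test with Benjamini-Hochberg adjustment over all 103512 tiles. By this measure 24 of the 6139 tiles (0.391%) were at least 25 points higher in sarcoid at q below 0.01, where 2.28% of all tiles were. A fall of that size cannot occur here. At a size of 5 points 181 tiles (2.95%) were higher, beside 6.32% of all tiles, and 124 (2.02%) were lower, beside 12.1% of all tiles. Only the 802 tiles over 5% in skin have room for such a fall, and of these 130 were higher and 124 lower. With reads divided by the number of CpGs a read can span, 49 of the 802 were higher and 28 lower. For the mirror choice, of the 6196 isolated dense tiles at or below 20% in sarcoid, 34 were at least 25 points lower than in skin, where 4.10% of all tiles were.

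The large gains started mostly from a low but measurable level, over 5% in 22 of the 24 tiles. Among the 4018 tiles at or below 1% in skin, 0 rose by 25 points and the highest sarcoid level was 8.18%. A rise of at least 5 points was called in 2 of them, named here after their values were seen. On chromosome 16 (62824001 to 62825000) the level went from 0.664% to 8.18% over 14 CpGs. On chromosome 2 (105933001 to 105934000) it went from 0% to 5.96% over 30 CpGs. In the 1319 tiles between 1% and 5% in skin 2 rose by 25 points, in the 441 between 5% and 10% there were 9, and in the 361 between 10% and 20% there were 13. The share past 25 points was thus 0.152%, 2.04% and 3.60% in these classes. The classes rest on the level that chose the tiles, so this order was not tested.

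The 24 tiles reached a middling level in the sarcoid rather than a full one. Their skin levels ran from 1.12% to 18.3% with a median of 10.3%, and their sarcoid levels from 32.2% to 75.2% with a median of 43.6%. Of the 24, 21 lay between 30% and 60% in sarcoid and 6 were above 50%. In bulk tissue a larger share of methylated cells, another mix of cell types and partial methylation within cells cannot be told apart. The rise involved most CpGs of a tile: 441 of their 466 covered CpGs were higher in sarcoid, and in 10 tiles every covered CpG was. The tiles were picked for a rise of their summed reads, and neighbouring CpGs share reads. These counts, and the strands below, are therefore not separate evidence. Of the 466 CpGs, 237 passed the same thresholds singly, in a test over all covered CpGs of the genome. In all, 544 CpGs of the 6139 tiles (0.344%) rose singly and 85 (0.0538%) fell, where 0.954% and 1.89% of all covered CpGs did. On chromosome 1 the authors' deposited table, which rests on the same reads, covered 15249 CpGs in 522 of the tiles. At its own q below 0.01 and 25 points, the authors' deposited table called 27 of these CpGs higher (0.177%, beside 0.593% of all its CpGs) and 2 lower (0.0131%, beside 0.852%). The strands of a CpG are sequenced separately. In the 23 tiles with reads on both strands in both libraries, each strand rose by at least 10 points, though the strands need not cover the same CpGs.

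The largest rise was on chromosome 1 from 83552001 to 83553000, from 12.6% (interval 9.11 to 17.2) in skin to 75.2% (67.9 to 81.3) in sarcoid. It rests on few reads. Its 11 covered CpGs span 73 bp, less than a single read of 75 bp, with 23.8 reads per CpG in skin and 14.3 in sarcoid. The reads of skin lay on the plus strand only, and on that strand the sarcoid level was 72.7%. Flanks from 1 to 3 kb, of 7 and 4 covered CpGs, were methylated on both sides, at 81.2% and 66.5% in skin and at 64.9% and 67.7% in sarcoid. On these few reads and CpGs the tile was a dip in methylated surroundings in skin and was no longer one in the sarcoid.

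On chromosome 5 from 32270001 to 32271000 the rise was broad and deeply covered, with 62.2 reads per CpG in skin and 54.6 in sarcoid. Its 32 CpGs span 670 bp, and 31 of them were higher in sarcoid. In skin they ran from 0% to 20% with a median of 7.69%, and in sarcoid from 0% to 71.8% with a median of 58.1%. The plus strand rose from 10.3% to 55.8% and the minus strand from 6.58% to 57.0%. The covered flank, of 4 CpGs, stayed low at 5.64% and 4.74%.

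A further tile of the same chromosome (58150001 to 58151000) went from 6.39% (4.84 to 8.39) to 55.8% (49.1 to 62.2) over 11 CpGs. In skin a single CpG near the end of the tile had 42.9% and the other 10 had 0% to 6.85%, whereas in sarcoid the CpGs ran from 21.4% to 63.2%. The strands differed in skin: the plus strand, with 6 CpGs, rose from 33.0% to 53.1%, and the minus strand, with 11, from 2.68% to 53.8%. This tile had 66.9 reads per CpG in skin and 19.7 in sarcoid. Its covered flank was at 2.27% in skin and 1.82% in sarcoid. A tile of chromosome 18 (12185001 to 12186000) went from 17.2% (14.5 to 20.3) to 63.4% (58.3 to 68.3), with 19 of 19 CpGs higher. Its flanks moved in opposite directions, from 16.5% to 1.11% on the side before the tile and from 3.96% to 18.6% on the side after it.

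**Figure D4:**
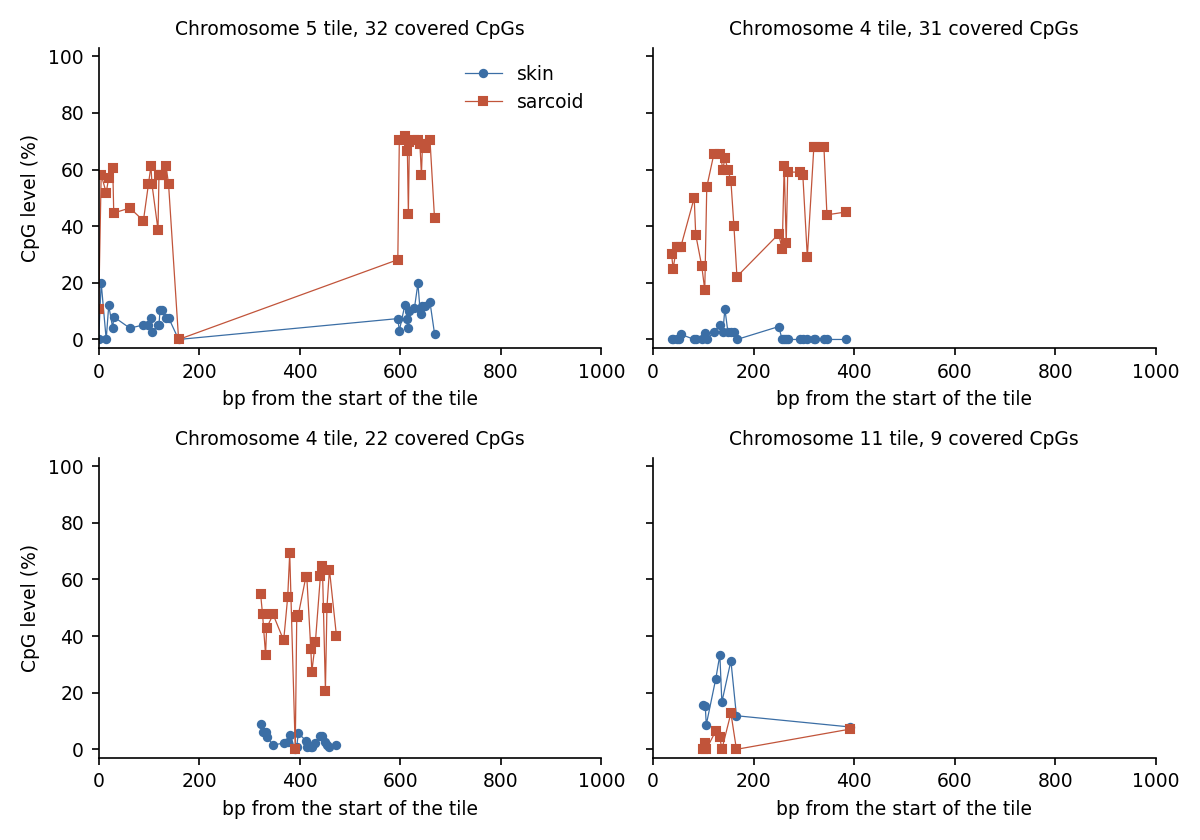
Methylation level (%) of each covered CpG in skin and sarcoid, by distance in bp from the start of the 1 kb tile, for 3 tiles that rose in the sarcoid and the tile with the largest fall (chromosome 11). In the rising tiles the sarcoid CpGs lie mostly between 20% and 70% and the skin CpGs at or below 20%.

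The other 4 of the 8 largest rises lay within 42 kb of chromosome 4. In the tile from 58132001 to 58133000 skin had 2.79% (2.15 to 3.60) of 2009 reads methylated and sarcoid 46.9% (43.3 to 50.4) of 764, with 21 of 22 CpGs higher and 18 called singly. From 58145001 to 58146000 it went from 15.8% to 53.2% over 8 CpGs. From 58169001 to 58170000 it went from 14.0% to 61.3%, with 17 of 19 CpGs higher. From 58173001 to 58174000 skin had 1.12% (0.678 to 1.83) of 1344 reads methylated and sarcoid 43.2% (40.3 to 46.1) of 1142. In this last tile, the lowest in skin of all 24, each of the 31 CpGs was higher in sarcoid. They ran from 0% to 10.8% in skin and from 17.5% to 68.0% in sarcoid, without overlap, and 26 were called singly.

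The megabase of chromosome 4 from 58000001 to 59000000 held 13 of the tiles, which allows rising and quiet neighbours to be compared. This megabase was taken up because it held the 4 large rises above, so counts within it include the tiles that led to it. Of the 13, 9 were higher in sarcoid, and 6 were called higher by at least 5 points. Of all 6139 tiles 39.4% were higher and 2.95% were called so. The 2 beyond those named rose from 3.60% to 16.5% (58177001 to 58178000) and from 5.28% to 18.9% (58215001 to 58216000). Between and beside them were tiles near 0 in the sarcoid. From 58185001 to 58186000 the level was 0.302% in skin and 0.225% in sarcoid, and from 58203001 to 58204000 it was 1.11% and 0.217%. The gain was thus not continuous along the chromosome. Without this megabase 20 of 6126 tiles were called at least 25 points higher.

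**Figure D5:**
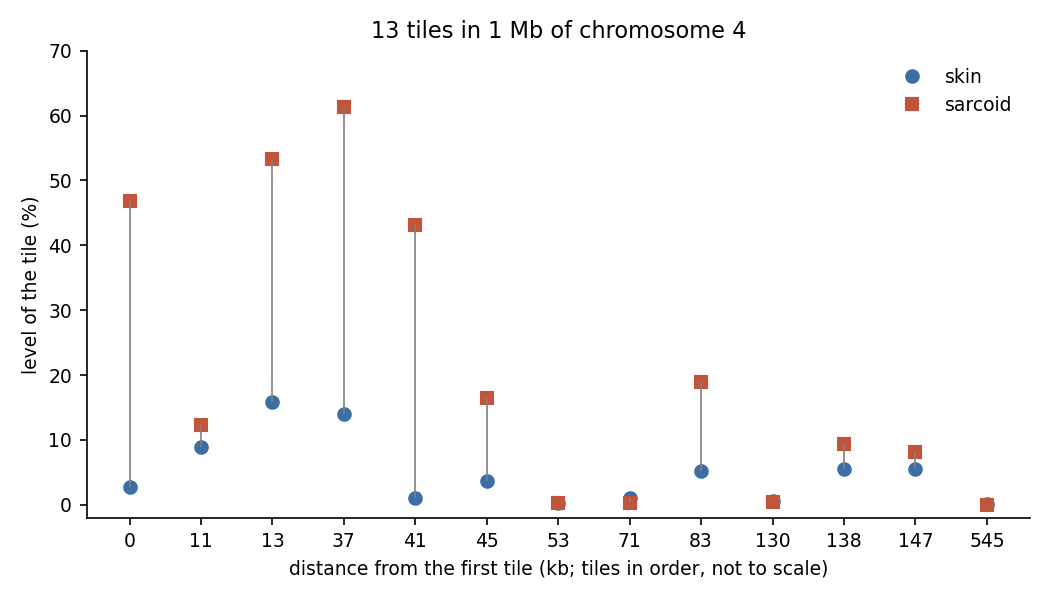
Levels in skin and sarcoid (%) of the 13 tiles in the megabase of chromosome 4, in order, labelled with their distance in kb from the first. The 4 tiles at 0, 13, 37 and 41 kb reached 43.2% to 61.3% in sarcoid, while those at 53, 71, 130 and 545 kb were below 1% in sarcoid.

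The 24 tiles lay on 14 of the 31 chromosomes. Of these, 4 lay within 100 kb of another, and these were the tiles of chromosome 4. By density, of 2022 tiles listing 21 to 25 CpGs 12 rose by 25 points, of 1445 with 26 to 30 CpGs 9, of 1631 with 31 to 40 CpGs 3, and of 1041 with over 40 CpGs 0. Relative to the median chromosome, the sarcoid to skin ratio of reads was 0.216 to 0.328 (log2) higher on 10 chromosomes (5, 6, 7, 12, 18, 21, 22, 25, 28 and 29). These held 1842 of the tiles and 12 of the 24. Their share past 25 points was 0.651%, against 0.279% on the other 21 chromosomes. The part of depth in this was not tested. The sarcoid to skin ratio of reads of the tile itself had a median (log2) of -0.703 in the 24 tiles and -0.570 in all 6139, and 15 of the 24 were below the latter.

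Not every tile was far from other dense sequence. Of the 6139 tiles 4530 had no other dense tile within 5 kb, and of the 24 large rises 13 had none.

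Losses were small by construction. The largest was on chromosome 11 from 34715001 to 34716000, where skin had 18.5% (15.1 to 22.5) of 426 reads methylated and sarcoid 3.31% (1.94 to 5.58) of 393, with 9 of 9 CpGs lower. In a tile of chromosome 6 (70871001 to 70872000) a level of 19.2% became 4.44%, though 9 of 19 CpGs were lower and the skin level came from CpGs of up to 76.7% beside a median of 0%. Chromosome 8 from 10761001 to 10762000 fell from 16.5% to 2.52%, with 22 of 22 CpGs lower. Chromosome 24 from 42227001 to 42228000 fell from 15.9% to 2.74% and chromosome 15 from 19261001 to 19262000 from 15.3% to 2.40%. With reads divided by the number of CpGs a read can span, the tiles of chromosomes 11, 24 and 15 no longer passed q below 0.01, while 23 in place of 24 tiles were called at least 25 points higher.

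Low dense tiles in crowded bins and low tiles of sparse CpGs are the sets most like the isolated tiles. The 460 dense tiles at or below 20% in skin that shared their bin with at least 2 others had medians of 1.78% in skin and 1.73% in sarcoid, above the 0.358% and 0.288% of the isolated tiles. Of these, 6 (1.30%) rose by 25 points. The 17178 low tiles with 20 or fewer listed CpGs had medians of 1.07% and 0.786%, and 272 (1.58%) rose by 25 points, over a median of 351 reads in skin and 274 in sarcoid. The share of 0.391% in the isolated tiles is lower than both, but both sets had higher skin levels. The sparse tiles also differed in depth. The dense tiles in crowded bins did not, with medians of 1412.5 reads in skin and 1006.5 in sarcoid. With 1 library per tissue no test of the difference was possible.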

How the data were processed

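RRBS libraries of 1 sarcoid and 1 distant skin sample of the same horse were sequenced with 75 bp single-end reads, per the labels' protocols. FastQC, BSMAP and methylKit are named, per the submitters' processing notes, without settings. The deposited file of each library gives a read count (coverage) per cytosine and strand and the percent of C and T to 1 decimal, per the file headers. The authors' deposited table for chromosome 1 gives p-values and q-values and a signed difference, a score in percentage points.

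Methylated reads were coverage times percent of C, rounded. Strands of a CpG were summed (minus-strand position less 1), and CpGs with 10 reads in both libraries were covered CpGs. Fisher's exact test (two-sided) compared methylated and unmethylated reads per tile, with Benjamini-Hochberg adjustment over all tiles, and per CpG over all covered CpGs. Calls needed q below 0.01 and 25 points (5 for smaller rises and for falls). The test compares 2 libraries, not conditions. It was checked on simulated data.

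Tiles named were the 8 largest rises, the 5 largest falls, the 3 with most covered CpGs and no methylated read in sarcoid, and 2 on either side of 20%. The regions and rules were chosen with earlier results of these data known. Alternatives changed the coverage minimum, tile grid, density, isolation, strand, depth and thresholds. Software was matplotlib 3.10.9, numba 0.67.0, SciPy 1.17.1, pandas 2.3.3 and NumPy 2.4.6 under Python 3.11.15.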

Additional observations from a re-analysis of the deposited data

How the results depend on the processing

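Of 68 alternative values of the counts, 56 stayed within 1.5 times. With over 30 listed CpGs, 2812 tiles remained, 2784 at or below 20% in sarcoid, with 4 called higher and 59 lower. With no dense tile within 5 kb 13 were called higher. With skin at most 10%, 11 were called higher and 32 lower. Without the chromosomes deeper in sarcoid, 12 were called higher and 75 lower. Without the megabase of chromosome 4, an alternative added after seeing the data, 20 were called higher. At a size of 10 points 83 were higher and 23 lower. With reads divided by CpGs per read 28 were lower. The median sarcoid level ran from 0.234% to 0.315%. The mean difference ran from 0.104 points (over 30 listed CpGs) to 0.257 (grid shifted by 500 bp) and was 0.132 on the minus strand, against 0.218. Differences of the 13 named tiles kept their sign in all settings run. That of the chromosome 24 tile ran from -30.3 points (CpGs with 20 reads) to -0.667 (CpGs with 10 reads on the plus strand), against -13.2. No paired analysis was possible because each tissue has 1 library. Depth limits tiles with few molecules most.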

Other observations

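Strands of a CpG rarely disagreed inside the tiles. Of 58755 CpGs with 10 reads on each strand in both libraries, 139 (0.237%) in skin and 220 (0.374%) in sarcoid had strands at least 30 points apart, against 13.2% and 13.3% of 255419 such CpGs of the genome. CpGs near 0% on both strands have no room for such a gap, so the shares are not a comparison of quality.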
